A study of Mus musculus with 6 samples.

Results

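Endothelial cells line blood and lymph vessels. The 34 genes described here are markers and regulators of these cells, and they were found by their symbol in the array's gene table. A row was found for 33 of the 34, out of 19505 gene symbols on the array, and Egfl7 was not analysed here. Expression was measured with Affymetrix arrays in Müllerian ducts, the embryonic tubes that give rise to the oviducts, uterus and upper vagina, dissected from mouse embryos at E17.5. The 3 mutant embryos had the genotype Lats1f/f,Lats2f/f,Amhr2cre/+, with Cre recombinase in 1 copy of the locus of the anti-Müllerian hormone receptor, which is active in the duct mesenchyme. The 3 control embryos had the genotype Lats1f/f,Lats2f/f and so carried the same floxed alleles without Cre. LATS1 and LATS2, kinases of the Hippo pathway, keep the coactivators YAP and TAZ out of the nucleus. The sample titles name an embryo for each array and call the arrays of a genotype biological replicates, with no litter given. The whole duct was sampled, so endothelial transcripts are a share of a mixed RNA, and fewer endothelial cells cannot be told apart from less endothelial RNA per cell.

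Endothelial cells hold to each other by VE-cadherin and claudin-5 junctions, and they read angiopoietins through the TIE receptors, apelin through its receptor, and BMP ligands through ALK1 and endoglin. VEGF receptors drive the sprouting of vessels, and Notch signalling selects the cells that lead a sprout. ETS and SOX transcription factors, among them ERG, SOX7 and SOX18, maintain endothelial identity.

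Signals are log2 values as deposited, so a difference of 1 is a 2-fold change. The background of an array is the median of its 23 antigenomic probes, which lay at 5.35 to 5.88. The 75th percentile of the same probes lay higher, at 6.79 to 6.87. Of the targeted genes, Lats1 was at 11.12, 11.77 and 11.60 in mutant ducts, against 12.51, 12.13 and 12.20 in control ducts, and Lats2 at 11.63, 11.95 and 11.32 in mutant ducts, against 11.49, 11.58 and 11.17 in control ducts. The mutant values of Lats1 lay below those of the controls but did not pass the test (limma adjusted p = 0.0958), Lats2 overlapped, and these values do not check the deletion, since it is not known here which exons the probes read. Amhr2, whose locus carries Cre, was at 6.92, 7.52 and 6.54 in mutant ducts, against 10.88, 10.51 and 10.80 in control ducts. Control 3 stood apart in urothelial transcripts, with a mean level of 10.25 over 8 urothelial genes, whereas the mutant arrays lay at 6.33 to 6.43 and the other controls at 6.06 and 6.30. It also had the highest mean over 10 smooth muscle genes, 12.28, with the mutant arrays at 10.60 to 11.02 and the other controls at 9.56 and 10.56. Not all of these genes were highest in control 3. No member was called in the fit without that array, and log2 fold changes without it are given for Plvap, Aplnr, Angpt1, Gja5 and Prox1. Of 11 mesenchymal genes of the tract all lay above background on every array, as did 8 of 10 epithelial ones, and so did 29 of the 33 endothelial genes, which include Cdh5, Pecam1, Tek and Tie1.

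Few endothelial genes differed between genotypes beyond the spread of the arrays. Of the 33 measured, 1 was called higher in mutant ducts (Ecscr) and 0 were called lower at a limma adjusted p of 0.05. Over all 22206 transcript clusters on the arrays 3.26% were called, 2.59% higher and 0.666% lower. At an unadjusted p under 0.05, 3 members were higher and 4 lower, beside 8.49% and 6.81% of all transcript clusters (15.3% in all). The median log2 fold change of the 33 was -0.21 (range -0.75 to 0.84), next to -0.01 over all transcript clusters. Values below 0 were found for 23 members, or 69.7%, as for 51.5% of all transcript clusters. For 27 of the 33 the 95% interval of the log2 fold change lay inside -1 to 1, so that a 2-fold change in either direction lay outside it, which was the case for 84.8% of all transcript clusters. The 6 members whose intervals reached beyond -1 or 1 were Angpt1, Ecscr, Vwf, Mmrn1, Gja5 and Mmrn2. Groups did not overlap in 6 members, 2 higher (Ecscr and Eng) and 4 lower (Robo4, Cd34, Mmrn1 and Ramp2) in mutant ducts, beside 10.9% and 10.2% of all transcript clusters (21.1% in all). Read against that background, these counts are no result about the members as a group. With mutant 1 left out the median was -0.09, and with control 3 left out it was -0.16.

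**Figure D1:**
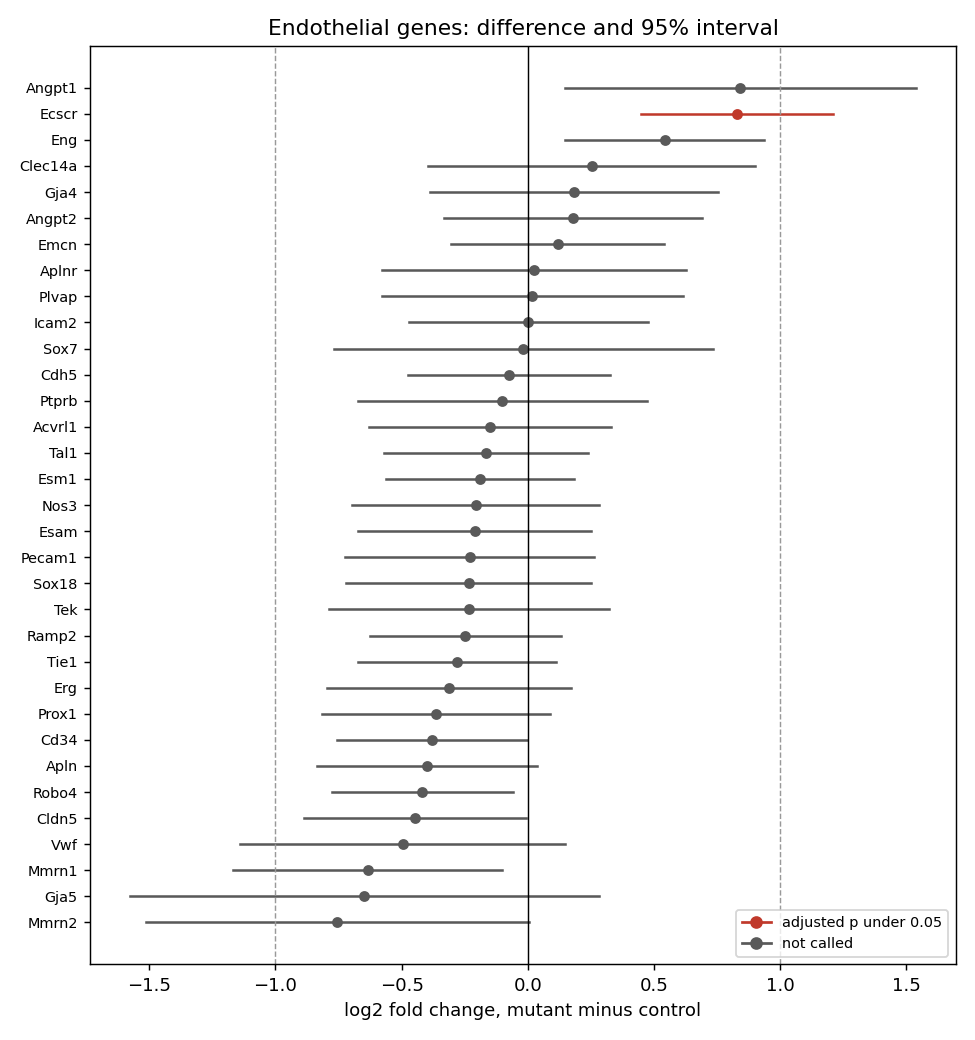
Log2 fold change (mutant minus control, horizontal axis) of each of 33 endothelial genes, as a point with its 95% interval from limma over 3 mutant and 3 control arrays. Dashed lines mark -1 and 1. Ecscr, in red, is the 1 gene called, and 27 of the 33 intervals lie between the dashed lines.

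Among the junction and surface proteins, 1 of 11 was called higher and none lower. Cdh5, which encodes VE-cadherin, the adhesion molecule of endothelial junctions, was at 13.19, 13.38 and 13.51 in mutant ducts, against 13.64, 13.25 and 13.42 in control ducts. The genotypes overlapped, and the log2 fold change of -0.07 had a standard error of 0.18 and a 95% interval of -0.48 to 0.33. Further errors given after ± are standard errors of the log2 fold change. Pecam1 (CD31), another adhesion molecule of the endothelial border, was at 10.74, 10.95 and 11.39 in mutant ducts, against 11.04, 11.55 and 11.18 in control ducts, also overlapping, with an interval of -0.72 to 0.26. Emcn, the surface sialomucin endomucin, had an interval of -0.30 to 0.54, and Icam2, an adhesion molecule for leukocytes, one of -0.47 to 0.48. Ptprb, the endothelial phosphatase VE-PTP that restrains TIE2, had an interval of -0.67 to 0.47, and Esam, a junction protein of the immunoglobulin family, one of -0.67 to 0.25.

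Ecscr, a transmembrane regulator of endothelial signalling, was at 10.33, 10.25 and 10.63 in mutant ducts, against 9.54, 9.64 and 9.54 in control ducts. All mutant arrays lay above all control arrays, a 1.77-fold rise, or 0.83 ± 0.17 on the log2 scale (limma adjusted p = 0.0305). No call was left once any 1 of the 6 arrays was dropped, when the log2 fold change ran from 0.71 to 0.90 and the limma adjusted p from 0.0539 to 0.118 (without mutant 1 0.0883, mutant 2 0.0539, mutant 3 0.0929, control 1 0.118, control 2 0.077 and control 3 0.0789).

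Cd34, a sialomucin that is also found on blood progenitors and some stromal cells, was at 13.44, 13.52 and 13.70 in mutant ducts, against 13.79, 14.09 and 13.91 in control ducts. The mutant arrays all lay below the controls, with a log2 fold change of -0.38 ± 0.17, but the difference did not pass the test (limma adjusted p = 0.325). Cldn5, the tight junction protein claudin-5, was at 7.10, 7.54 and 7.14 in mutant ducts, against 7.97, 7.53 and 7.62 in control ducts. Mutant 2 and control 2 stood at nearly the same signal, and the log2 fold change was -0.45 with an interval of -0.89 to -0.01 and a limma adjusted p of 0.318. Plvap, which forms the diaphragms of fenestrated vessels, was at 9.07, 9.14 and 9.17 in mutant ducts, against 8.86, 8.70 and 9.76 in control ducts. Its highest value was that of control 3, and without that array its log2 fold change was 0.35 in place of 0.02. Clec14a, a C-type lectin of endothelial cells, spread widely in both groups, with a log2 fold change of 0.25 and an interval of -0.39 to 0.90.

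**Figure D2:**
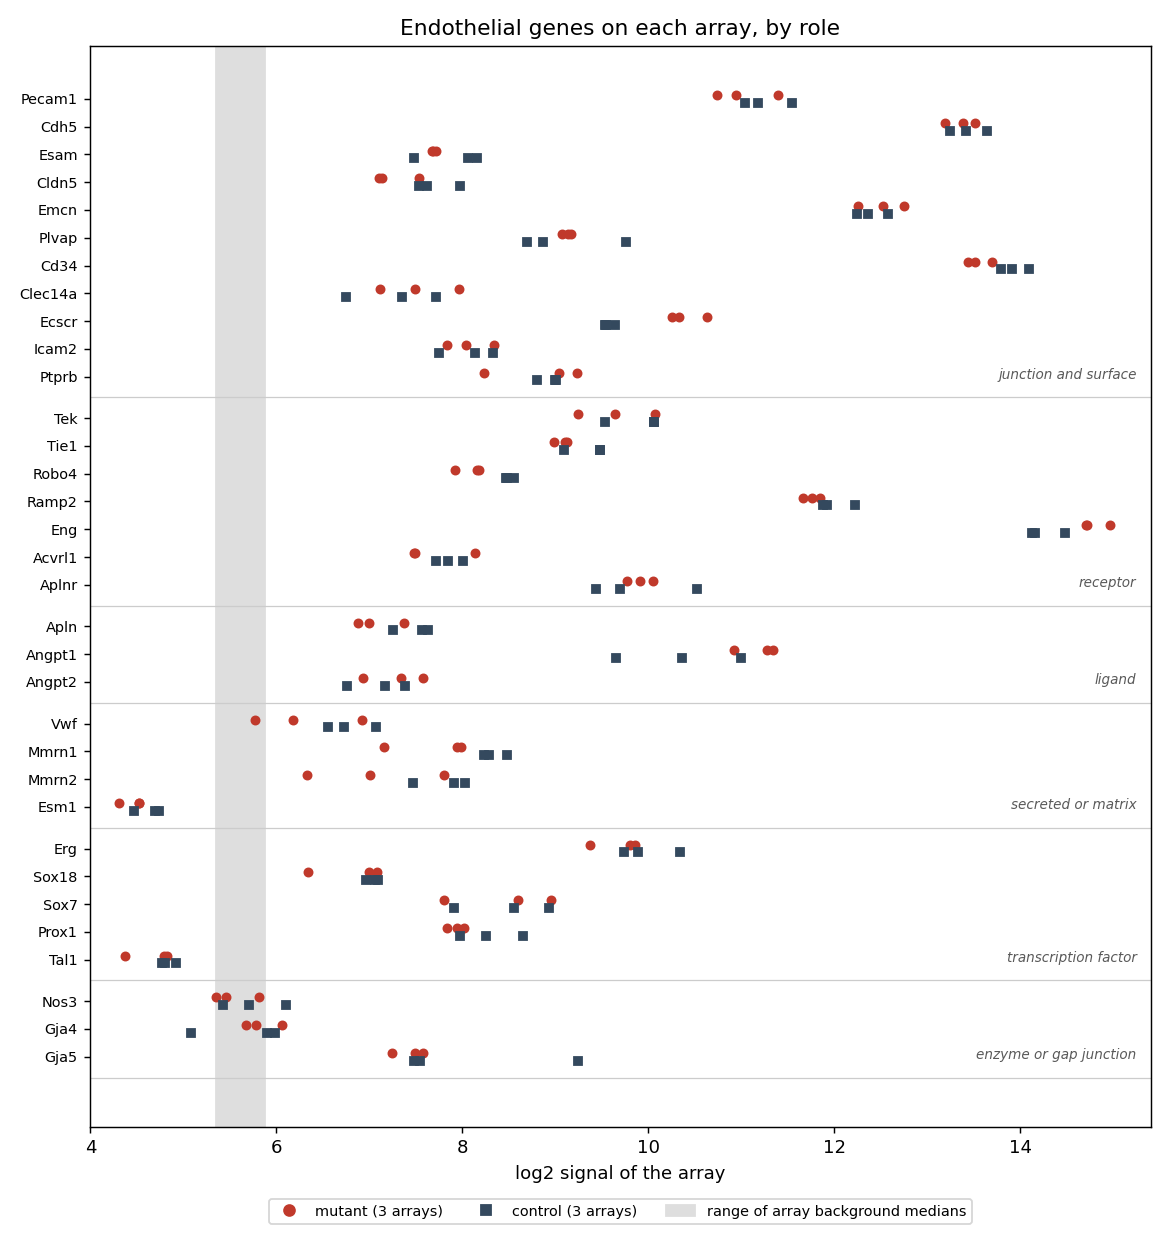
Log2 signal (horizontal axis) of 33 endothelial genes on each of 3 mutant arrays (red circles) and 3 control arrays (dark squares), ordered by role, with the range of the arrays' background medians in grey. Mutant and control values overlap for 27 genes, and Esm1 and Tal1 lie below background on every array.

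Receptors were not called in any of 7 cases. Tek, the angiopoietin receptor TIE2, was at 9.24, 10.08 and 9.65 in mutant ducts, against 9.54, 10.06 and 10.07 in control ducts, and Tie1, its partner, at 8.98, 9.11 and 9.13 in mutant ducts, against 9.48, 9.10 and 9.48 in control ducts. Both overlapped between genotypes, with intervals of -0.79 to 0.32 for Tek and -0.67 to 0.11 for Tie1. Eng, the TGF-beta and BMP coreceptor endoglin, was at 14.72, 14.96 and 14.71 in mutant ducts, against 14.15, 14.48 and 14.13 in control ducts. The mutant arrays all lay above the controls, by 0.54 ± 0.17 on the log2 scale, which did not pass over all transcript clusters (limma adjusted p = 0.167). Endoglin is also made by stromal cells and macrophages, and macrophage and leukocyte genes were higher in the same arrays. Of 14 such genes 9 were called higher and 0 lower, beside 2.59% and 0.666% of all transcript clusters. Their mean level was 9.72 to 10.04 in mutant and 8.68 to 8.72 in control ducts, and their part in the Eng values was not tested. Acvrl1 (ALK1), the type I receptor that signals with endoglin, was at 7.48, 8.14 and 7.49 in mutant ducts, against 7.85, 8.00 and 7.71 in control ducts. It overlapped between genotypes, with a log2 fold change of -0.15 and an interval of -0.63 to 0.33.

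Robo4, an endothelial receptor of the roundabout family that stabilises vessels, was at 8.16, 8.18 and 7.92 in mutant ducts, against 8.48, 8.55 and 8.47 in control ducts. These were the least variable values of any member within a genotype, with a pooled SD of 0.11, and the mutant arrays all lay below the controls. The log2 fold change of -0.42 ± 0.16 did not pass (limma adjusted p = 0.247). Ramp2, which turns the calcitonin receptor-like receptor into an adrenomedullin receptor, was at 11.67, 11.85 and 11.76 in mutant ducts, against 11.92, 11.88 and 12.22 in control ducts. The gap between the lowest control and the highest mutant array of Ramp2 was narrow, and the log2 fold change was -0.25 with an interval of -0.63 to 0.13. Aplnr, the apelin receptor of venous and sprouting endothelium, was at 9.77, 9.91 and 10.05 in mutant ducts, against 9.70, 9.44 and 10.52 in control ducts. Control 3 was again the highest array, and the log2 fold change was 0.34 without it and 0.02 with it.

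Promoters from the RefSeq-based table were read for the members that had one, to see whether letters bound by ETS factors lay close to the start. Those of Robo4 (chr9:37401722-37402021 on the plus strand), Cd34 (chr1:194938571-194938870 on the plus strand) and Mmrn1 (chr6:60944067-60944366 on the plus strand, a multimerin described further on), whose mutant arrays lay below the controls, and of Eng (chr2:32646345-32646644 on the plus strand), whose mutant arrays lay above them, are shown in build GRCm38.p6. Each runs 5′ to 3′ in the direction of its gene, and capitals mark a match to the letters searched, CCGGAAG or else CAGGAAG or else ACAGGAA, on either strand.
Robo4: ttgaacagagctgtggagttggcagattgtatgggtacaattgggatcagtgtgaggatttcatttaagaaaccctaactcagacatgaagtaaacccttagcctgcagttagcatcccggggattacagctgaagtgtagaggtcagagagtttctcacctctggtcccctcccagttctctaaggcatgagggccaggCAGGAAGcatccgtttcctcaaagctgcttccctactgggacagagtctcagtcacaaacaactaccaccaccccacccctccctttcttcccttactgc
Cd34: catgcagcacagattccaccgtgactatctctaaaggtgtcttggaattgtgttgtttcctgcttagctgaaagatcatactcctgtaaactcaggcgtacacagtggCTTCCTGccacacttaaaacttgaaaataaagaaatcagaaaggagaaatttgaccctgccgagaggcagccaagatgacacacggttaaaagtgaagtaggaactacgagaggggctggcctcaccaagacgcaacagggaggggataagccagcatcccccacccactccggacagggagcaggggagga
Mmrn1: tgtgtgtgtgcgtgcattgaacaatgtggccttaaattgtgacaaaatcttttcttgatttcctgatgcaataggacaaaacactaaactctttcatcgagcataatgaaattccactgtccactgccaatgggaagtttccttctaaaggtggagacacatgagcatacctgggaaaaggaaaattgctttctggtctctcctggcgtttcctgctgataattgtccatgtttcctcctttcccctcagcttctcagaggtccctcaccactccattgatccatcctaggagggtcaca
Eng: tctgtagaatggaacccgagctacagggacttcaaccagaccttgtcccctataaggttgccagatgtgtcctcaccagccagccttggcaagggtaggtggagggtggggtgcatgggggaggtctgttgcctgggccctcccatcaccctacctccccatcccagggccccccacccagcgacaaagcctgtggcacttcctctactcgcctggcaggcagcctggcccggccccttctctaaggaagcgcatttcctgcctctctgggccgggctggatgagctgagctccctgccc
Robo4 and Cd34 held 1 match each, at -50 and -142 from the start, and Mmrn1 and Eng held none in these windows, so that genes below the controls were found both with and without a match. Besides these, Apln, Emcn, Erg, Esm1 and Tie1 had a match in a window of theirs. A window was at hand for 16 of the 33 members, 20 windows in all, since some genes have several starts. The ETS letters were in 7 of the 20 and in 25.2% of all 32851 windows of the same length. On both strands again, the TEAD letters GGAATG were in 5 of the 20 beside 14.7% of all windows, the hypoxia response letters ACGTG in 1 of the 20 beside 19.6%, and the GATA letters AGATAAG in 2 of the 20 beside 3.0%. The last of the ETS words can overlap the one before it and the TEAD letters. A match describes these letters only, and the counts are small.

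Of the 3 ligands none was called. Angpt1, the TIE2 agonist made by mural and other mesenchymal cells, was at 11.34, 10.92 and 11.28 in mutant ducts, against 11.00, 10.36 and 9.65 in control ducts. All mutant arrays but mutant 2 lay above every control, and the control arrays spread over more than a 2-fold range, so the log2 fold change of 0.84 ± 0.31 had an interval of 0.15 to 1.54 and a limma adjusted p of 0.227. Control 3 was the lowest, and the log2 fold change was 0.50 without it and 1.17 without control 1. Of 12 pericyte genes 3 were called higher and 0 lower, beside 2.59% and 0.666% of all transcript clusters. At an unadjusted p under 0.05, 5 were higher and 1 lower, beside 8.49% and 6.81%. The log2 fold change was above 0 for 10 of them and below 0 for 2, with a median of 0.50. The mean level of the pericyte genes was 9.97 to 10.09 in mutant and 9.30 to 9.66 in control ducts. Their part in the Angpt1 values was not tested. Angpt2, the angiopoietin that endothelial cells release when vessels are remodelled, was at 6.93, 7.57 and 7.33 in mutant ducts, against 7.17, 7.38 and 6.76 in control ducts, overlapping, with a log2 fold change of 0.18 and an interval of -0.33 to 0.69. Apln, the ligand of the apelin receptor and a gene of sprouting tip cells, was at 6.88, 6.99 and 7.37 in mutant ducts, against 7.56, 7.63 and 7.25 in control ducts. Mutant 3 lay above control 3, and the log2 fold change of -0.40 had an interval of -0.83 to 0.04.

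Secreted and matrix proteins of endothelium had 4 measured members, all with a log2 fold change below 0 and none called. Mmrn1, multimerin 1 of platelets and lymphatic endothelium, was at 7.16, 7.98 and 7.95 in mutant ducts, against 8.48, 8.28 and 8.23 in control ducts. The mutant arrays lay below the controls without overlap, with a log2 fold change of -0.64 ± 0.24 and a limma adjusted p of 0.235, and without mutant 1 it was -0.37. Mmrn2, multimerin 2, the endothelial matrix ligand of Clec14a, was at 7.01, 6.33 and 7.81 in mutant ducts, against 8.03, 7.91 and 7.47 in control ducts. The 3 mutant arrays spread over more than a 2-fold range and overlapped the controls through mutant 3. Its log2 fold change of -0.75 was the lowest among the members, with an interval of -1.51 to 0.00 and a limma adjusted p of 0.33, and it was -0.40 without mutant 2 and -1.13 without mutant 3 (limma adjusted p = 0.0854). Vwf, the von Willebrand factor that endothelial cells store and release, was at 5.77, 6.17 and 6.92 in mutant ducts, against 6.73, 7.07 and 6.55 in control ducts, close above background in mutant 1, with an interval of -1.14 to 0.15. Esm1 (endocan), a proteoglycan of sprouting tip cells, was at 4.52, 4.31 and 4.52 in mutant ducts, against 4.74, 4.47 and 4.70 in control ducts. All of these lay below the arrays' background.

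Transcription factors of endothelium gave 0 calls in 5, all with a log2 fold change below 0. Erg, the ETS factor that maintains endothelial identity, was at 9.38, 9.80 and 9.86 in mutant ducts, against 9.74, 10.34 and 9.89 in control ducts. Sox18 was at 6.34, 6.99 and 7.08 in mutant ducts, against 7.09, 6.96 and 7.06 in control ducts, and Sox7 at 8.60, 8.95 and 7.80 in mutant ducts, against 8.93, 7.91 and 8.56 in control ducts. For Erg and Sox18 mutant 1 was the lowest of all arrays, and the genotypes of all these factors overlapped. The intervals ran -0.79 to 0.17 for Erg, -0.72 to 0.25 for Sox18 and -0.77 to 0.73 for Sox7. Prox1, the master regulator of lymphatic endothelium that is also made in other tissues, was at 7.84, 8.02 and 7.94 in mutant ducts, against 8.25, 7.98 and 8.65 in control ducts, with an interval of -0.81 to 0.09. Its highest array was control 3, and the log2 fold change was -0.18 without it and -0.36 with it. Tal1, a factor of early blood and endothelial cells, was at 4.82, 4.37 and 4.80 in mutant ducts, against 4.77, 4.92 and 4.80 in control ducts, below background on every array.

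Arterial and vasomotor genes were also not called. Gja5 (connexin 40), a gap junction protein of arterial endothelium, was at 7.58, 7.24 and 7.49 in mutant ducts, against 7.54, 9.24 and 7.48 in control ducts. Only control 2 stood apart from the other 5 arrays, and without it the log2 fold change was -0.07, against -0.65 over all arrays, -0.92 without control 1 and -0.95 without control 3. Gja4 (connexin 37) was at 5.67, 5.78 and 6.06 in mutant ducts, against 5.90, 5.08 and 5.98 in control ducts and Nos3, the endothelial nitric oxide synthase, at 5.46, 5.35 and 5.81 in mutant ducts, against 5.71, 5.43 and 6.11 in control ducts. Both lay near background, Gja4 below it on 2 mutant arrays and 1 control array and Nos3 on all 3 mutant arrays and on none of the controls, and the genotypes overlapped for both.

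The members varied more between the mutant arrays than between the controls in their mean. Within the mutants, mutant 1 was the lowest for 23 of the 33 members and mutant 3 the highest for 18. Among the controls the lowest values were shared out, 8 in control 1, 12 in control 2 and 13 in control 3. As the mean deviation from each gene's mean over the 6 arrays, the members stood at -0.23, -0.03 and 0.07 in mutant 1, 2 and 3, against 0.03, 0.09 and 0.06 in control 1, 2 and 3. Mutant 1 and mutant 2 lay below all controls and mutant 3 within their range. The median pooled SD within genotypes was 0.29 for the members and 0.24 for all transcript clusters.

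Among signals that endothelial cells read, VEGF ligands and receptors were called higher in 4 of 9 cases and lower in none. Over all transcript clusters 2.59% were called higher and 0.666% lower. Kdr (VEGFR2), the main signalling receptor of endothelium, was at 14.32, 14.50 and 14.44 in mutant ducts, against 13.40, 13.38 and 13.17 in control ducts, a 2.14-fold rise (log2 fold change 1.10 ± 0.16, limma adjusted p = 0.00624). Flt1 (VEGFR1), which can act as a trap for VEGF-A, rose by 1.16 ± 0.22 (limma adjusted p = 0.0216), Vegfa by 1.14 ± 0.20 (limma adjusted p = 0.0154) and Pgf, placental growth factor, by 1.41 ± 0.21 (limma adjusted p = 0.00624). On the same arrays the intervals of Cdh5 (-0.48 to 0.33), Pecam1 (-0.72 to 0.26), Tek (-0.79 to 0.32) and Tie1 (-0.67 to 0.11) lay below that of Kdr (0.74 to 1.46), and the differences between these genes were not tested. The calls of Kdr and Pgf held in each fit with 1 array dropped. That of Flt1 was lost without mutant 1 (0.072), mutant 2 (0.0692), control 1 (0.0965) or control 2 (0.0542), and that of Vegfa without mutant 1 (0.0698), mutant 2 (0.0517) or control 1 (0.0695), each a limma adjusted p. The list kept 2 calls without mutant 1, mutant 2 or control 1.

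**Figure D3:**
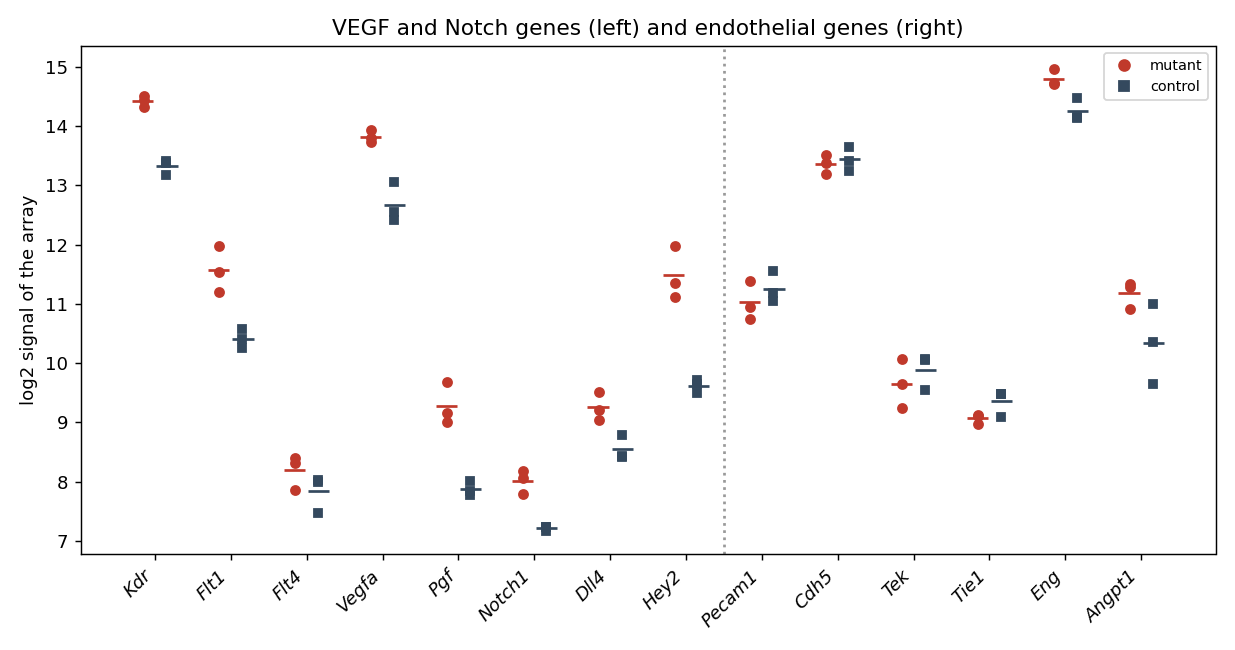
Log2 signal (vertical axis) on each of 3 mutant arrays (red circles) and 3 control arrays (dark squares), with a bar at each mean, for VEGF and Notch genes left of the dotted line and endothelial genes right of it. Kdr, Flt1, Vegfa, Pgf, Notch1, Dll4 and Hey2 on the left and Eng on the right lie higher in mutant ducts without overlap. Flt4 on the left and Pecam1, Cdh5, Tek, Tie1 and Angpt1 on the right overlap.

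Notch, arterial and venous genes were called higher in 3 of 15 cases and lower in none, beside 2.59% and 0.666% of all transcript clusters. At an unadjusted p under 0.05, 5 were higher and 1 lower, beside 8.49% and 6.81%. Hey2, a Notch target of arterial endothelium that other cells also make, rose by 1.86 ± 0.23 (limma adjusted p = 0.0024), Unc5b, a netrin receptor of arteries and tip cells, by 1.15 (limma adjusted p = 0.0288) and the receptor Notch1 by 0.80 (limma adjusted p = 0.0337). The ligand Dll4 was at 9.21, 9.04 and 9.52 in mutant ducts, against 8.79, 8.41 and 8.43 in control ducts, without overlap, and did not pass (limma adjusted p = 0.0963). Efnb2 of the same list lay the other way, at 15.28, 15.27 and 15.26 in mutant ducts, against 16.12, 15.75 and 15.72 in control ducts. It was lower without overlap, by a log2 fold change of -0.59, and did not pass either (limma adjusted p = 0.12). Of these calls that of Hey2 alone held in each fit with 1 array dropped, so that 1 was left without mutant 1, mutant 2, control 1 or control 2, and 2 without mutant 3 or control 3 (Hey2 and Unc5b). The arterial members Gja4 and Gja5 were not called. In the BMP9 and ALK1 pathway that Eng and Acvrl1 belong to, 0 of 12 genes passed the limma test. At an unadjusted p under 0.05, 5 were higher and 1 lower, beside 8.49% and 6.81% of all transcript clusters. With rows under the median signal left out, 7 of the 12 stayed in the fit and 2 were called higher. With the trended prior 2 of the 12 were called higher and 1 lower. These fits also called more of all rows tested, 8.32% and 4.47% beside 3.26%.

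Of 31 further genes of endothelium 3 rose, Kdr and Flt1 among them, and 1 fell (Sox17), with a median log2 fold change of 0.06. Shares to set beside each count of calls in this paragraph are 2.59% higher and 0.666% lower over all transcript clusters. Without control 1, Kdr was the 1 rise left. Sox17, the arterial relative of Sox7 and Sox18, was at 5.80, 6.03 and 5.65 in mutant ducts, against 7.12, 6.41 and 6.86 in control ducts. The mutant signals lay close to those arrays' background medians of 5.67, 5.81 and 5.88 and, in mutant 3, below it. Of the controls, control 2 lay below the 75th percentile of its antigenomic probes (6.87) and control 3 at it (6.86). The log2 fold change was -0.97, with an interval of -1.45 to -0.49 (limma adjusted p = 0.0445). Signals this close to background do not give the size of the fall. The call was lost without mutant 1, mutant 2, mutant 3, control 1 or control 3, with a limma adjusted p of up to 0.162. Of 22 transcription factors of endothelium outside the members, Hey2 and the ETS factor Elf4 rose and Sox17 fell, Elf4 by 0.94 (limma adjusted p = 0.0216, lost without mutant 1, mutant 3, control 1 or control 2). Fli1, the close kin of Erg, had a log2 fold change of 0.21 with an interval of -0.28 to 0.70. Genes known from tip cells, many of which other cells also make, rose in 4 of 16 cases (Plaur, Adm, Kcne3 and Unc5b) and fell in none, whereas the tip cell genes Apln, Angpt2 and Esm1 among the members were not called.

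Cells that share vessels or markers with endothelium were read from lists of their own. The 3 pericyte genes that rose were Ndufa4l2, by 2.73, Cox4i2, by 1.22, and Pdgfrb, by 0.91 on the log2 scale, and of the 3 only Ndufa4l2 was left without mutant 1, control 1 or control 2. Lymphatic genes gave 0 calls in 11 by limma. At an unadjusted p under 0.05, 1 was higher and 1 lower, beside 8.49% and 6.81% of all transcript clusters. The higher one, Pdpn (podoplanin), which epithelium and fibroblasts also make, had a limma adjusted p of 0.0532 and was called under 5 alternatives. Genes of megakaryocytes and platelets, cells that also make Mmrn1 and Vwf, gave 0 calls in 11. At an unadjusted p under 0.05, 0 were higher and 1 lower, beside the same shares, and 5 of the 11 lay below background on every array. Their mean level was 5.48 to 5.63 in mutant and 5.62 to 5.66 in control ducts. Erythroid genes gave 0 calls in 10, and 0 at an unadjusted p under 0.05. Of the 10, 6 lay below background on every array and 2 on some of the arrays. Their mean level was 6.34 in mutant 3, with the other mutants at 5.55 and 5.58 and the controls at 5.75 to 5.96. These counts therefore do not compare the blood content of the ducts. No other tool was run on these lists.

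**Figure D4:**
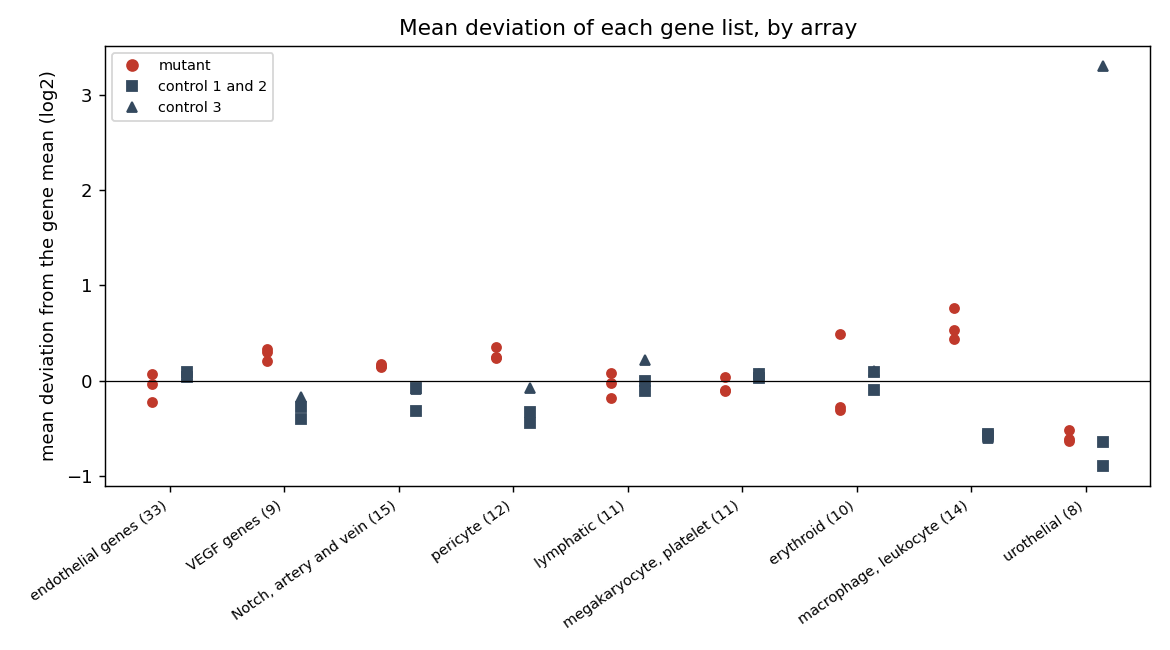
Mean deviation of each list from its genes' means over the 6 arrays (vertical axis, log2), for 3 mutant arrays (red circles) and 3 control arrays (dark squares, control 3 as a triangle), with the number of genes in brackets. The endothelial genes lie near 0 on all arrays, -0.23 to 0.07 in mutant and 0.03 to 0.09 in control ducts, while the macrophage and leukocyte genes lie at 0.44 to 0.76 in mutant and -0.60 to -0.56 in control ducts. The triangle at 3.30 is control 3 in the urothelial list.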

How the data were processed

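The deposited table holds log2 signals, 1 column for each of the 6 arrays, from total RNA of whole ducts. Per the submitters' processing notes, the authors used Transcriptome Analysis Console 4.0. How probes were summarised and normalized, and the build, are not given in the sources read. The values were analysed as deposited. Of 28846 rows, 22206 transcript clusters were tested, and 6617 control rows and 23 antigenomic background rows were left out. The platform annotation gave 1 symbol for 19572 tested rows, several for 0 and none for 2634. Each member had 1 row, and other genes were read at the brightest of theirs.

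Groups came from the sample titles. limma 3.58.1 (lmFit, eBayes; R 4.3.3) was fitted over all tested rows with genotype as the only term, two-sided, and p-values were Benjamini-Hochberg adjusted over all of them, with a threshold of 0.05 and intervals at 95%. The fit was tested on simulated data. Precision is limited by there being 3 arrays a genotype. Signals were given per array for the members called, those whose groups did not overlap and the defining ones, and, chosen after their values were seen, for Cldn5, Mmrn2, Vwf, Gja4, Gja5 and Nos3. Of each companion list up to 4 genes of smallest p could be named, with Kdr, Flt1, Vegfa, Dll4 and Notch1 in any case. Fli1 and Efnb2 were named after their values were seen. 1 gene of these lists is not reported here. The members and lists were chosen with earlier results of these data known. Alternatives were quantile normalization, a shift to a common median, filters at the 25th percentile and at the median of the rows, a trended robust prior, array weights, a replicate block, the mean of a gene's rows, and leaving out each array. Promoter windows (250 bases before to 50 after a start) are RefSeq's. Figures: matplotlib 3.10.9, Python 3.11.15.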

Additional observations from a re-analysis of the deposited data

How the results depend on the processing

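Of the values recomputed under the alternatives, 871 were kept, 64 calls were lost, 4 were gained, 21 values changed sign and 11 counts moved. The genes followed were the 33 members, the companion genes called in the main fit, Dll4 and Jag1. Other companion genes could not count as gained, so lost and gained calls cannot be weighed against each other. A gene was kept when its direction and its side of the threshold held. A count of calls or the median was kept when it stayed within a set range of its main value. No member was called lower under any alternative, and the median of the 33 ran from -0.23 to -0.19 in the fits over all 6 arrays and from -0.27 to -0.09 with 1 array left out. Ecscr was called in each fit over all arrays but the replicate block, where 0 members were called higher, and leaving out 1 array also gave 0 each time (lowest 0, highest 0). Over all transcript clusters 723 were called, and 360 to 697 with 1 array left out, and the companion lists had 30 calls, and 19 to 28 with 1 array left out. Fewer arrays in the fit give fewer calls. The labels do not say whether the 3 replicate numbers pair the arrays. Deviations of same-numbered arrays correlated at 0.00777, 0.0419 and -0.00302, which cannot decide it, since pairing is a matter of design. The replicate block moved the total to 633. Calls named in the text that were lost in that fit had a limma adjusted p of 0.0687 for Ecscr, 0.0656 for Notch1, 0.0666 for Unc5b, 0.0813 for Sox17 and 0.0522 for Pdgfrb. Dll4 was called when rows under the median were left out (0.0435), and Jag1 with either filter or the trended prior. Efnb2 was called lower with the trended prior. The lost calls came with an array left out or with the block. Members near 0 changed sign when 1 array was left out, with log2 fold changes of -0.17 to 0.0305 (Cdh5), -0.00267 to 0.24 (Emcn), -0.19 to 0.35 (Plvap), -0.30 to 0.31 (Sox7), -0.00853 to 0.47 (Clec14a), -0.16 to 0.13 (Icam2), -0.20 to 0.34 (Aplnr), -0.10 to 0.35 (Gja4) and -0.30 to 0.20 (Ptprb). Sign changes also came with quantile normalization for Plvap (-0.00202) and Icam2 (-0.00419), with a common median for Sox7 (0.00123) and with array weights for Icam2 (-0.00173). The cause of these changes was not tested. Signals near the background median limit Esm1, Tal1, Nos3 and Gja4. Vwf, Mmrn2, Sox18, Clec14a and Angpt2 also lay below the 75th percentile of the antigenomic probes (6.79 to 6.87) on at least 1 array.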
